A study of Mus musculus with 18 samples.

Results

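The effect of losing CD45 was measured in mature group 2 innate lymphoid cells (ILC2) of the bone marrow. The comparison takes 6 of the 18 libraries of the series, 3 labelled mature CD45 knockout (KO) and 3 labelled mature control, chosen by population and genotype label and by no measured value. Control cells came from mice whose genotype label is Rag2 KO, and CD45 KO cells from mice labelled CD45 KO x Rag2 KO, so both groups lack the recombinase that T and B cells need to form. The other 12 libraries, immature marrow ILC2 and lung ILC2 of the same 2 genotypes, entered the statistical fit and the comparisons of effects at the end. Per the labels, 200 cells were sorted for a sample, while the extract protocol has 100 cells in a tube. The labels leave out the age and sex of the mice, which part of the gene was deleted, and whether replicates are separate mice. The p-values therefore measure the spread between these libraries, which may be technical.

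CD45 is an abundant receptor tyrosine phosphatase of blood cells. It removes the inhibitory phosphate from the tail of Src-family kinases and can also act on Janus kinases, and its best known role is in antigen receptor signalling of T and B cells. ILC2 have no antigen receptor. They respond to alarmins such as interleukin 33 and to interleukin 7, depend on the transcription factor GATA3, and secrete type 2 cytokines and amphiregulin when activated.

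The mature libraries were shallow, with 69987 to 103057 counts in control and 87335 to 122250 counts in CD45 KO, and 7669 to 8697 genes with a count. Of 11204 genes detected in them, 1916 had enough counts in the series to be tested, with a median of 12 counts per mature library. Levels are counts scaled to library size (normalised CPM). Where no count was seen, the level could still reach 25.3 to 44.7 CPM depending on the library, by counting error alone. All 10 ILC2 markers were detected, with sums of 6527 to 8110 CPM in control and 6419 to 8066 CPM in CD45 KO. Of T cell markers 5 of 7 were at 0 in every mature library, and the sum over the list was 0 to 3 counts. Markers of B cells, NK cells, ILC3, monocytes, dendritic cells, mast cells, red cells, stem cells and stroma summed to at most 249.8 CPM per list and library. In these bulk libraries, fewer cells of a type and less RNA per cell cannot be told apart.

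A pair of libraries stood apart. Mature control replicate 1 held 184 counts of 10 neutrophil markers (2742 CPM, with S100a8 at 75 counts and S100a9 at 67), against 4 to 12 counts (33.7 to 167 CPM) in each of the other 5 mature libraries. Of the 10 markers 1 was at 0 in every mature library, and none had enough counts to be tested. Without this control 5 genes passed, of which 3 passed with all libraries too. The library labelled mature CD45 KO replicate 1 had 16.1% of its counts in Rn45s, the ribosomal RNA precursor, against 8.73% to 10.7% in the others, and 4.17% in Rn4.5s, a small noncoding RNA, against 6.95% to 8.81%. A chi-square statistic per degree of freedom was taken for pairs of libraries, over tested genes with at least 10 counts in the pair. Between the library labelled CD45 KO replicate 1 and the other CD45 KO libraries this statistic was 3.61 and 3.84. It was 1.17 between CD45 KO replicates 2 and 3, and 1.12 to 1.34 between control libraries. With Rn45s and Rn4.5s set aside, the values were 1.83 and 1.90 for replicate 1 against its own group and 1.58 to 1.82 against the controls. Between controls and CD45 KO replicates 2 and 3 they were 1.32 to 1.62. The statistic uses raw counts and can depend on depth, and the part of depth was not tested. On the root-mean-square difference of log2 CPM replicate 1 was slightly nearer to its own group, at 0.602 and 0.607, than to the controls, at 0.613 to 0.694. That measure was 0.482 between CD45 KO replicates 2 and 3, the libraries with the most counts, 0.571 to 0.633 between controls, and 0.556 to 0.611 between controls and those 2 libraries.

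Ptprc, the gene of CD45, was the check on the genotype labels. It lies on chromosome 1 (138062861 to 138175708, minus strand, mm10 build). Controls held 253, 458 and 541 CPM (17, 33 and 54 counts), and CD45 KO libraries 238, 101 and 88.0 CPM (20, 12 and 10 counts). Replicates 2 and 3 lay well below every control. The library labelled CD45 KO replicate 1 lay just under the lowest control in CPM and above it in raw counts, and its 95% Poisson interval of 146 to 368 CPM overlapped that of control replicate 1, 148 to 406 CPM. The fall was -1.68 ± 0.29 as a log2 fold change ± SE (adjusted p = 0.00015 by edgeR's quasi-likelihood test). With the library labelled CD45 KO replicate 1 left out it was -2.16 (adjusted p = 3.21e-07), and -2.39 without both replicates numbered 1. Counts that remain do not measure functional transcript, since the deleted part is not known.

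**Figure D1:**
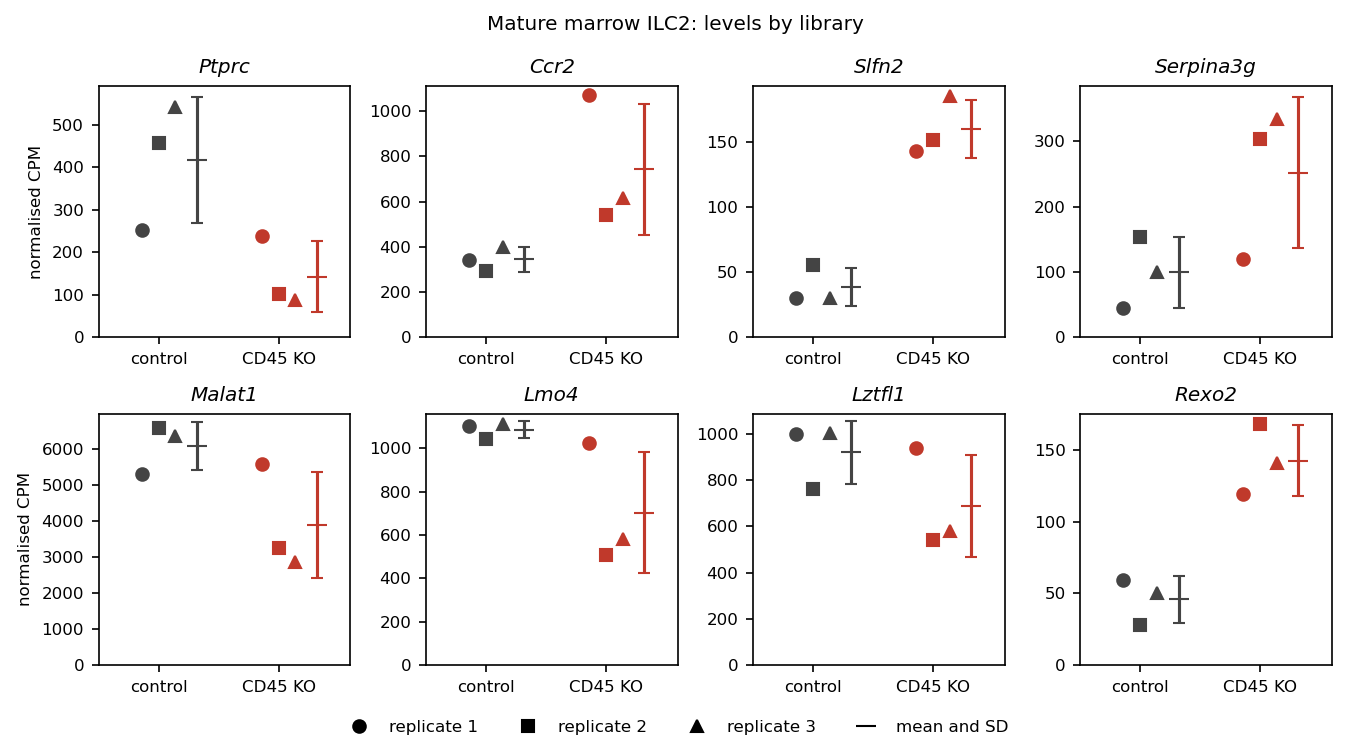
Normalised CPM of 8 genes in each mature library, with control in grey and CD45 KO in red, marker shape for the replicate number, and the mean with SD (n = 3) beside the points. The library labelled CD45 KO replicate 1 sits near the controls for Ptprc, Serpina3g, Malat1, Lmo4 and Lztfl1, and apart from them for Ccr2, Slfn2 and Rexo2.

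With all 6 libraries, 5 of 1916 genes passed (0.261%), 3 higher (0.157%) and 2 lower (0.104%) in CD45 KO. Apart from Ptprc these were a chemokine receptor gene, a Schlafen gene, a serine protease inhibitor gene and a nuclear long noncoding RNA. An unadjusted p under 0.05 was found for 173 genes (9.03%), 101 of them higher. All 3 libraries of a group lay to the same side of all 3 of the other for 245 genes (12.8%), 126 higher (6.58%) and 119 lower (6.21%). The median log2 fold change over all tested genes was 0.00071. The count of 5 genes that passed became 12 with the library labelled CD45 KO replicate 1 left out, and 3 with CD45 KO replicate 3 left out. By the Wald test of DESeq2 1 gene passed (Ptprc). When edgeR was fitted to the 6 mature libraries alone, 0 passed (105 at an unadjusted p under 0.05).

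Ccr2 encodes the receptor for the monocyte chemoattractant CCL2 and guides monocytes out of the marrow. The gene is on chromosome 9 (124101950 to 124113557, plus strand). Controls were at 343, 291 and 401 CPM, and CD45 KO libraries at 1072, 539 and 616 CPM. All 3 CD45 KO libraries were above all 3 controls, with the library labelled replicate 1 far above the other 2. Ccr2 rose by 1.04 ± 0.22 (adjusted p = 0.00697). Without the library labelled CD45 KO replicate 1 the change was 0.73 (adjusted p = 0.117) and did not pass, and without control replicate 2 it was 0.94 (adjusted p = 0.0805).

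Slfn2 encodes a Schlafen protein that helps to keep T cells and monocytes quiescent and is induced by interferon. It lies on chromosome 11 (83065112 to 83070678, plus strand). Controls held 29.8, 55.5 and 30.1 CPM and CD45 KO libraries 143, 152 and 185 CPM. The 3 CD45 KO libraries lay close together and clear of the controls, replicate 1 included. Slfn2 rose by 2.06 ± 0.47 (adjusted p = 0.0143). The group sums were 9 and 51 counts, a ratio of 4.28 after scaling with a 95% counting interval of 2.09 to 9.89. The rise was 2.13 (adjusted p = 0.0114) without the library labelled CD45 KO replicate 1. It did not pass without control replicate 1 (adjusted p = 0.0662), control replicate 3 (0.161) or CD45 KO replicate 3 (0.136).

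Serpina3g, also called Spi2A, encodes an intracellular inhibitor of cathepsins that protects lymphocytes from lysosomal cell death. It lies on chromosome 12 (104236245 to 104241939, plus strand). Controls held 44.7, 153 and 100.3 CPM and CD45 KO libraries 119, 303 and 334 CPM. Replicate 1 was inside the control range, and replicates 2 and 3 were above it. The rise was 1.38 ± 0.33 (adjusted p = 0.0324) with all libraries and 1.66 (adjusted p = 0.000384) without replicate 1. It did not pass without control replicate 1 (adjusted p = 0.257) or 3 (0.161), or without CD45 KO replicate 2 (0.164) or 3 (0.235).

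Malat1 is a nuclear long noncoding RNA on chromosome 19 (5795690 to 5802672, minus strand). Controls held 5305, 6565 and 6356 CPM and CD45 KO libraries 5576, 3251 and 2851 CPM. Replicate 1 was again inside the control range, with the other 2 below it. Malat1 fell by 0.66 on the log2 scale (SE 0.15, adjusted p = 0.0126), and by 0.99 without replicate 1 (adjusted p = 4.34e-08). It did not pass without control replicate 2 (adjusted p = 0.101) or 3 (0.0539), or without CD45 KO replicate 2 (0.111) or 3 (0.233).

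Start-site sequences are shown for Slfn2 and Serpina3g, the genes of interferon-linked function that passed, and for Tgtp2 and Gbp7, interferon-inducible GTPase genes described below. Each runs 5′ to 3′ on the strand of the gene, from 250 bases before to 50 bases after the start in RefSeq (build GRCm38.p6). Capitals mark matches on either strand to the GAS letters TTCNNNGAA, a motif of interferon gamma signalling, and to the ISRE letters GAAA, any 2 bases and GAAA again, which interferon response factors bind. The windows are chr11:83064862-83065161 (plus strand) for Slfn2, chr12:104235897-104236196 (plus strand) for Serpina3g, chr11:49064163-49064462 (minus strand) for Tgtp2 and chr3:142530086-142530385 (plus strand) for Gbp7.
Slfn2: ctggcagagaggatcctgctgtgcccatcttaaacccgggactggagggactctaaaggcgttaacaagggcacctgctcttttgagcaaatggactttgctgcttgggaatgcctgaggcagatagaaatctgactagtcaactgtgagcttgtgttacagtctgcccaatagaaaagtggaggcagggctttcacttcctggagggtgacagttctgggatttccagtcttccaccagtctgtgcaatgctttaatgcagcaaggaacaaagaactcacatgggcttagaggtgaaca
Serpina3g: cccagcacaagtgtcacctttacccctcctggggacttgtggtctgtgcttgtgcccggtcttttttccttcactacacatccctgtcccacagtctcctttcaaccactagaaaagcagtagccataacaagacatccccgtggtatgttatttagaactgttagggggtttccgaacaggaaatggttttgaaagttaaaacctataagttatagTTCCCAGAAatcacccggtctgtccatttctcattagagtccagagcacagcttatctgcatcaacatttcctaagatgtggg
Tgtp2: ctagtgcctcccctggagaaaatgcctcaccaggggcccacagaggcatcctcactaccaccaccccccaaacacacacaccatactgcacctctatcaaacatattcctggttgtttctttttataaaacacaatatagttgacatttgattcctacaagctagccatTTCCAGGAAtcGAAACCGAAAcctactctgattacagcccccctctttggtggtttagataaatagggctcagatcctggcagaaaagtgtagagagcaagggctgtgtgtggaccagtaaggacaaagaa
Gbp7: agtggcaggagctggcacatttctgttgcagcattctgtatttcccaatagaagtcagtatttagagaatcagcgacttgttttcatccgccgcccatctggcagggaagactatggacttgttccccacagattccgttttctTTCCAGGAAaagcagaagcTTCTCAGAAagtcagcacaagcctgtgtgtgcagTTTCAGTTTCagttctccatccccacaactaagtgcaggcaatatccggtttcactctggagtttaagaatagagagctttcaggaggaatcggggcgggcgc

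Serpina3g had 1 GAS match, starting 33 bases before the start. Tgtp2 had 1 GAS and 1 ISRE match, at 81 and 70 bases before it. Gbp7 had 2 GAS matches, at 106 and 87 bases before it, and 1 ISRE match on the other strand, at 53. None of these letters was in the window of Slfn2 or in that of Ccr2, which says nothing of the factors. Of 32851 RefSeq windows of this length, 8.30% held GAS letters and 3.44% ISRE letters. Of 1161 tested genes with a single window, 6.20% and 3.70% did. Of the 23 tested interferon-inducible genes 10 had a single window, and 6 of the 10 held GAS letters and 6 held ISRE letters. Tested genes with no window or with several were left out of these shares. The windows described singly were of genes that were higher in CD45 KO. Among the other list members with a single window, Irgm1, whose fold change was negative, held ISRE letters, and Ifi47 held neither motif. A match of letters is not a bound site.

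**Figure D2:**
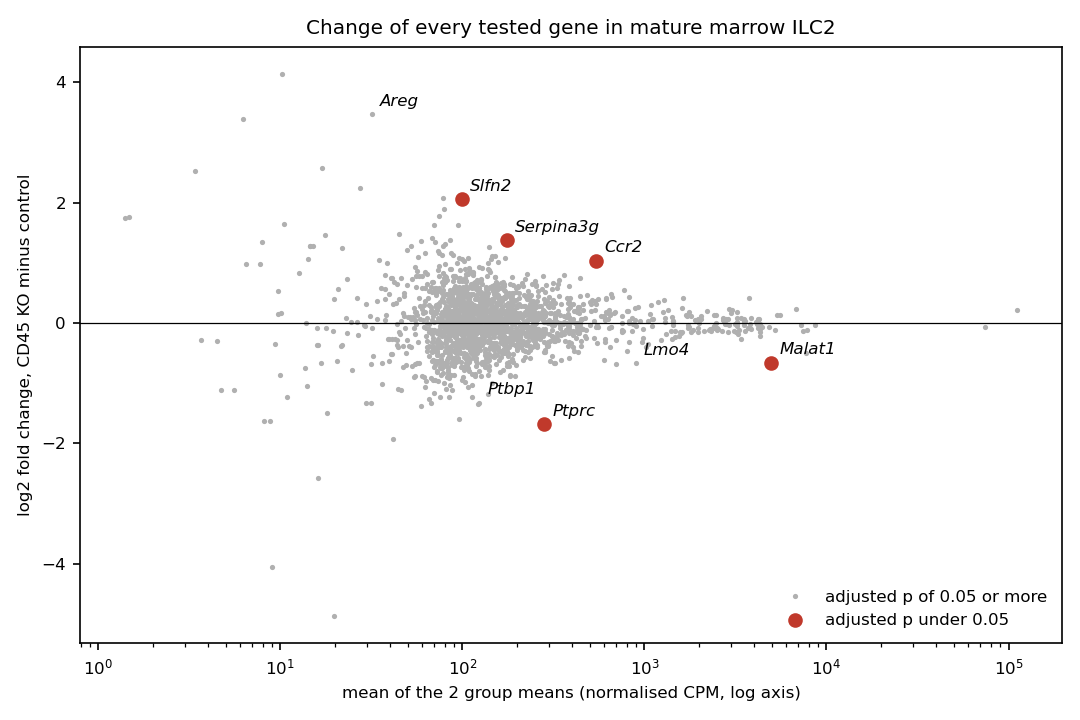
Log2 fold change, CD45 KO minus control, of each of the 1916 tested genes against the mean of the 2 group means in normalised CPM (log axis), with the 5 genes that passed in red. Large changes among grey points at low levels, such as Areg, rest on few counts.

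Several genes missed the threshold narrowly. Rexo2, an exonuclease gene that degrades short RNA in mitochondria, was at 59.6, 27.8 and 50.1 CPM in control and 119, 168 and 141 CPM in CD45 KO (1.63 ± 0.43, adjusted p = 0.0578). Rgs1 encodes a regulator of G-protein signalling that dampens chemokine responses. Like Ptprc it lies on chromosome 1 (144242296 to 144249242, minus strand), and an effect of this position was not tested. Rgs1 was at 14.9, 0 and 60.2 CPM in control and 167, 84.2 and 141 CPM in CD45 KO (2.07 ± 0.55, adjusted p = 0.0578). That is 7 against 40 counts, a ratio of 4.32 (95% counting interval 1.91 to 11.4). In both genes all CD45 KO libraries were above all controls.

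Areg, the gene of the tissue-repair growth factor amphiregulin, had 1 count over the controls and 19 over the CD45 KO libraries, a ratio of 14.3 with a counting interval of 2.28 to 596 (adjusted p = 0.0578). Of the 19 counts, 14 were in CD45 KO replicate 3. Vim, the gene of the intermediate filament vimentin, was at 59.6, 83.3 and 100.3 CPM in control and 167, 211 and 220 CPM in CD45 KO (1.26 ± 0.35, adjusted p = 0.0899). Its groups were well separated. Ms4a6b, a membrane-spanning surface protein gene, was at 74.5, 111 and 90.2 CPM against 214, 219 and 150 CPM (1.06 ± 0.37, adjusted p = 0.271).

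On the lower side, Lmo4, a transcriptional cofactor gene, was at 1103, 1041 and 1113 CPM in control and 1025, 505 and 581 CPM in CD45 KO (-0.67 ± 0.17, adjusted p = 0.0578). It passed with the replicate number as a block (adjusted p = 0.0465). Replicates 2 and 3 were at about the same low level, and replicate 1 was just under the controls. Ptbp1, a repressor of alternative exons, was at 179, 180 and 170 CPM against 71.5, 67.4 and 70.4 CPM (-1.32 ± 0.38, adjusted p = 0.104). Every library of each group lay close to its group mean, at 6 to 17 counts a library. Birc3, an inhibitor of apoptosis and NF-kB target, was at 194, 208 and 190 CPM against 47.7, 110 and 123 CPM (-1.0 ± 0.33, adjusted p = 0.209). Ikzf1, the gene of the lymphoid transcription factor Ikaros, was at 358, 458 and 451 CPM against 226, 303 and 290 CPM (-0.62 ± 0.22, adjusted p = 0.301).

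Interferon-inducible genes had the highest median of the 28 pathway lists. Of 62 listed genes 23 were tested, and 18 of the 23 had a positive fold change, against 50.2% of all tested genes. Their median was 0.58, and 0.69 without the library labelled CD45 KO replicate 1. Serpina3g passed. At an unadjusted p under 0.05, 10 of the 23 were higher, against 5.27% of all tested genes, and 2 were lower, against 3.76%. The list was drawn up with earlier results of these data known, so its direction is no independent evidence.

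Within that list the immunity-related and guanylate-binding GTPases, which attack vacuoles of intracellular pathogens, were the main members. Tgtp2 was at 417, 291 and 301 CPM in control and 441, 514 and 695 CPM in CD45 KO (0.75 ± 0.21, adjusted p = 0.104), and reads can be shared with its near-identical copy Tgtp1 (0.61 ± 0.23, adjusted p = 0.361). Gbp7 was at 283, 236 and 241 CPM against 524, 320 and 422 CPM (0.72 ± 0.24, adjusted p = 0.238). The groups did not overlap for either Tgtp2 or Gbp7. Igtp was at 164, 83.3 and 60.2 CPM against 71.5, 211 and 238 CPM, and Iigp1 at 59.6, 27.8 and 30.1 CPM against 35.7, 135 and 123 CPM. For both, replicate 1 was within the control range and the other 2 libraries were above it.

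In the other direction, Irgm1, a regulator of the GTPases above, was at 134, 180 and 160 CPM against 47.7, 126 and 88.0 CPM (-0.79 ± 0.39, adjusted p = 0.519). Shisa5, an endoplasmic reticulum protein gene, was at 1088, 1124 and 1273 CPM against 810, 901 and 941 CPM (-0.40 ± 0.15, adjusted p = 0.34).

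Summed over the list, controls were at 7764, 7731 and 7699 CPM and CD45 KO libraries at 7768, 9097 and 9986 CPM. Replicate 1 was at the level of the controls and the other 2 were above. In replicate 1, 7 of the 23 members were above all controls, 8 within their range and 8 below. In replicate 2 the numbers were 15, 6 and 2, and in replicate 3 they were 17, 3 and 3. Over all tested genes 27.8%, 24.3% and 24.5% were above all controls in replicates 1, 2 and 3. Below all controls were 26.6%, 23.6% and 22.7%. Members that were above control in replicate 1 included Gbp7, Gvin1, Trim30a, Ifi203 and Ifi47. The share of the list above control in that library, 30.4%, was near the 27.8% of all tested genes. Its share below was 34.8%, against 26.6%.

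**Figure D3:**
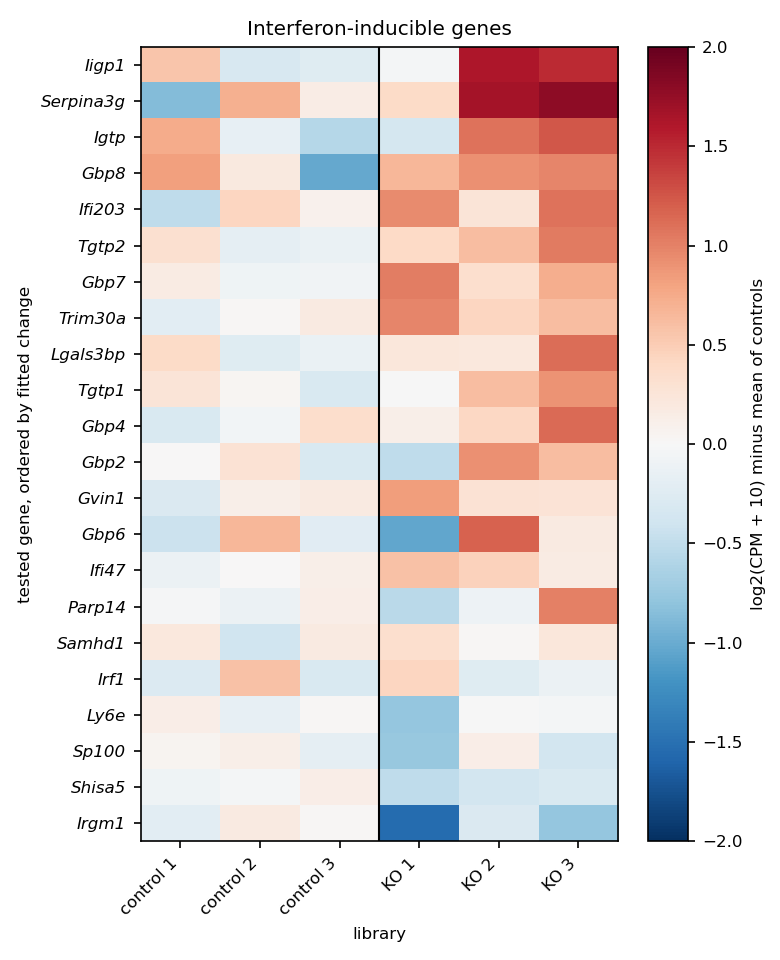
Level of 22 of the 23 tested interferon-inducible genes in each mature library, as log2(CPM + 10) minus the mean of the controls, with red above and blue below control and colours limited at 2 on the log2 scale. CD45 KO replicates 2 and 3 are mostly red, with 15 and 17 of the 23 members above all controls, against 24.3% and 24.5% of all tested genes. Replicate 1 is mixed, with 7 above and 8 below, against 27.8% and 26.6% of all tested genes.

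Heat shock chaperones, which fold newly made and damaged proteins, had positive fold changes in 15 of 18 tested genes, with a median of 0.27 and 0 passing. Hspa8, the constitutive Hsp70 gene, was at 1490, 1166 and 1504 CPM in control and 1835, 1803 and 1918 CPM in CD45 KO (0.41 ± 0.13, adjusted p = 0.194). Dnaja1, its co-chaperone, was at 298, 305 and 201 CPM against 334, 430 and 449 CPM (0.65 ± 0.23, adjusted p = 0.301). The list sums did not overlap, with 5177 to 5812 CPM in control and 6207 to 7056 CPM in CD45 KO, and replicate 1 was the lowest of its group.

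Of 17 tested antigen presentation genes 15 were positive, with a median of 0.14, and 0 passed. H2-K1, a classical class I heavy chain gene, was at 2891, 2776 and 2717 CPM in control and 3086, 3336 and 3299 CPM in CD45 KO (0.22 ± 0.12, adjusted p = 0.599). B2m, the gene of the class I light chain, was at 5603, 4691 and 5494 CPM against 5719, 5947 and 5737 CPM (0.14 ± 0.12, adjusted p = 0.787). Both were slightly above control in all 3 libraries. Oxidative phosphorylation genes had 31 of 49 positive, with a median of 0.18, and 0 passed. Replicate 1 had 5 of the 49 (10.2%) above all controls and 17 (34.7%) below, against 27.8% and 26.6% of all tested genes. Replicates 2 and 3 had 17 and 16 above (34.7% and 32.7%, against 24.3% and 24.5% of all tested genes) and 6 and 5 below (12.2% and 10.2%, against 23.6% and 22.7%). Most members outside the control range were thus below it in replicate 1 and above it in the other 2.

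The kinases and adaptors next to CD45 showed no shared direction. Of 18 tested genes of Src-family and proximal signalling, 9 were positive and 9 negative, with a median of 0.00 and 0 passing. Without the library labelled CD45 KO replicate 1 there were 6 positive and 12 negative members, with a median of -0.04. Zap70, a kinase of antigen receptor signalling, was at 59.6, 55.5 and 10.03 CPM against 107, 59.0 and 132 CPM (1.34 ± 0.56, adjusted p = 0.403). Vav1, a guanine nucleotide exchange factor, was at 89.4, 167 and 80.2 CPM against 47.7, 59.0 and 44.0 CPM (-1.10 ± 0.51, adjusted p = 0.482). Of 10 JAK-STAT genes 8 were positive, with a median of 0.30 and 0 passing. Among 14 receptors for cytokines and alarmins, 7 were positive and 7 negative, with a median of 0.01 (-0.10 without that library), and 0 passed.

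Of 23 tested ILC2 identity genes, 16 were negative, with a median of -0.08 and 0 passing. Without the library labelled CD45 KO replicate 1 the median was -0.19, again with 16 negative, and Lmo4 passed. Gata3, the central transcription factor of ILC2, was at 1654, 2360 and 2195 CPM in control and 2347, 1828 and 1496 CPM in CD45 KO (-0.15 ± 0.14, adjusted p = 0.805). Il1rl1, the gene of the interleukin 33 receptor ST2, was at 1460, 1499 and 1654 CPM against 1751, 1087 and 1091 CPM (-0.26 ± 0.15, adjusted p = 0.627). Its replicate 1 was above every control, while the other 2 were below every control. Il7r (-0.13 ± 0.18) and Id2 (0.08 ± 0.14) did not pass. Klrg1, an inhibitory receptor gene, was at 134, 305 and 250.6 CPM against 238, 110 and 326 CPM, and the groups overlapped.

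Of 9 tested ILC progenitor genes 6 were negative, and the list had the lowest median, -0.35, with 0 passing. Ccr9, a gut-homing receptor gene, was at 969, 833 and 842 CPM in control and 191, 665 and 704 CPM in CD45 KO (-0.69 ± 0.20, adjusted p = 0.106). All 3 CD45 KO libraries were below control, replicate 1 by far the most. Without replicate 1, on the genes tested with all libraries, the change of Ccr9 was -0.36 (adjusted p = 0.5). The list sums did not overlap either, at 2995, 3206 and 3118 CPM in control and 2204, 2468 and 2490 CPM in CD45 KO, and Ccr9 and Ikzf1 are among its members.

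The type 2 cytokine genes were nearly silent. Il13 had 0 counts in all 6 mature libraries, and Il5 had 2 counts over the controls and 3 over the CD45 KO libraries. A change in them was not detectable at this depth. Other effector genes were expressed: 20 of the 36 listed cytokines, growth factors and enzymes were detected, with sums of 1749 to 1905 CPM in control and 1643 to 2270 CPM in CD45 KO. Arg1, the gene of the arginine-degrading enzyme arginase 1, was at 358, 430.3 and 401 CPM in control and 417, 413 and 563 CPM in CD45 KO, and the groups overlapped. Ltb, which encodes lymphotoxin beta, was at 358, 389 and 541 CPM against 465, 404 and 519 CPM, again with overlap. Of the 17 tested effector genes 0 passed, and without the library labelled CD45 KO replicate 1 there was 1, Areg. Cytosolic ribosomal protein genes had 32 of 83 positive, with a median of -0.03 (0.03 without the library labelled CD45 KO replicate 1). In that library 48 of the 83 (57.8%) were below all controls and 8 (9.64%) above, against 26.6% and 27.8% of all tested genes. In replicates 2 and 3, 19.3% and 9.64% were below and 24.1% and 27.7% above. The list sum was 216031 CPM in replicate 1, under every control (235460 to 262196 CPM), and 242432 and 253111 CPM in replicates 2 and 3. Splicing and RNA-binding genes had 30 of 50 negative, with a median of -0.09.

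**Figure D4:**
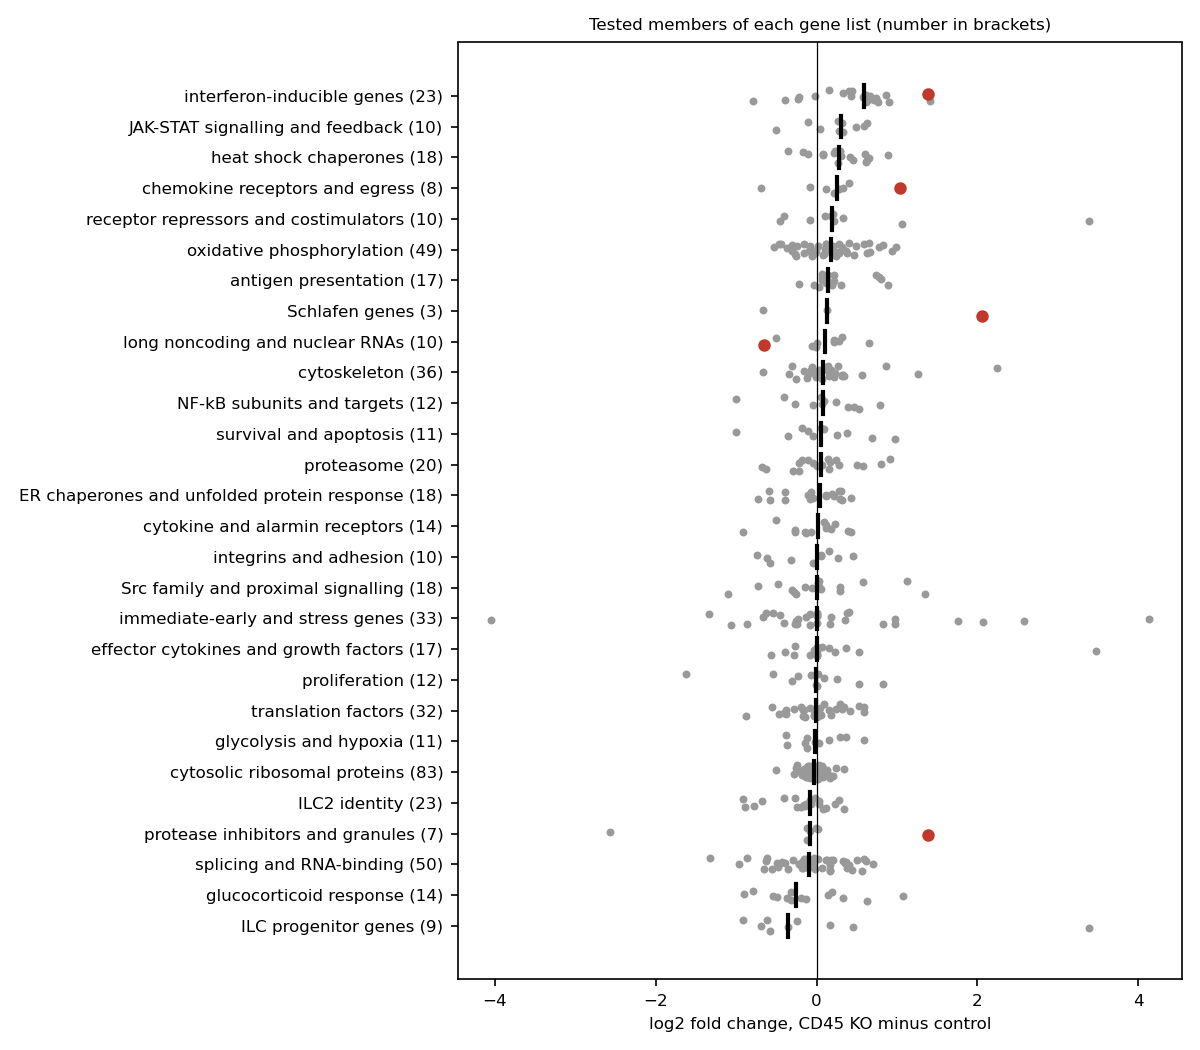
Log2 fold change, CD45 KO minus control, of the tested members (points) of the 28 pathway lists, ordered by median (black bar), with genes that passed in red. Medians run from 0.58 for interferon-inducible genes to -0.35 for ILC progenitor genes, and a gene that is in more than 1 list, such as Serpina3g, appears in each.

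How much rests on the library labelled CD45 KO replicate 1 was asked for each gene. There were 457 genes for which CD45 KO replicates 2 and 3 both lay outside the control range on the same side. Replicate 1 joined them for 245 (53.6%), lay within the control range for 143 (31.3%) and lay on the opposite side for 69 (15.1%). Asked the same way, replicate 2 was on the opposite side for 8.10% of 420 genes and replicate 3 for 9.54% of 409. Replicate 1 was the only CD45 KO library outside the control range for 257 genes, against 173 for replicate 2 and 130 for replicate 3. By the shares on the opposite side and the counts alone outside, replicate 1 was the member of its group most often out of step. The share within the control range was similar, at 31.3%, 33.6% and 30.6% for replicates 1, 2 and 3. Replicate 1 also had the fewest counts of its group, 87335 against 122250 and 116708. The part of depth in this was not tested.

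Without that library 12 of 2259 tested genes passed (0.531%), 5 higher and 7 lower, and 4 of the 5 genes above were among them, all but Ccr2. The others were Lmo4, Kctd12, Lztfl1, Areg, Tgtp2, Snrpb, Zfand5 and Rexo2. On the 1916 genes tested with all libraries, 14 passed (0.731%), adding Vim (1.35, adjusted p = 0.0461) and Ivns1abp (-0.73, adjusted p = 0.0363). Lmo4 was then at -0.99 ± 0.18 (adjusted p = 0.000118). Lztfl1, a regulator of ciliary trafficking, was at 998, 763 and 1003 CPM in control and 539 and 581 CPM in CD45 KO replicates 2 and 3 (-0.72 ± 0.18, adjusted p = 0.0278), while replicate 1 held 941 CPM. Snrpb, a spliceosome core gene, was at 224, 180 and 281 CPM against 101 and 79.2 CPM (-1.35 ± 0.35, adjusted p = 0.0376), with 226 CPM in replicate 1.

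For Malat1, Serpina3g, Kctd12, Lztfl1 and Snrpb replicate 1 was within the control range. For Ptprc, Lmo4 and Zfand5 it was just below the lowest control. For Slfn2, Areg, Tgtp2 and Rexo2 it was above all controls, as in replicates 2 and 3. Of the 5 genes that passed with all libraries, Ccr2 was the one whose call ended without replicate 1.

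Some genes set replicate 1 apart from all 5 other mature libraries. Neb, a giant muscle filament gene, was at 453 CPM in it and at 119 to 208 CPM in the others. Cxcr6, a chemokine receptor gene of lymphocytes that home to tissue, was at 715 CPM against 286 to 486 CPM. Cnn2, an actin-binding calponin gene, was at 95.3 CPM against 250.6 to 328 CPM. Ccr9 and Ccr2 were also among the genes furthest from the other 5, at the low and the high end. The part of the Rn45s and Rn4.5s shares in these differences was not tested.

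**Figure D5:**
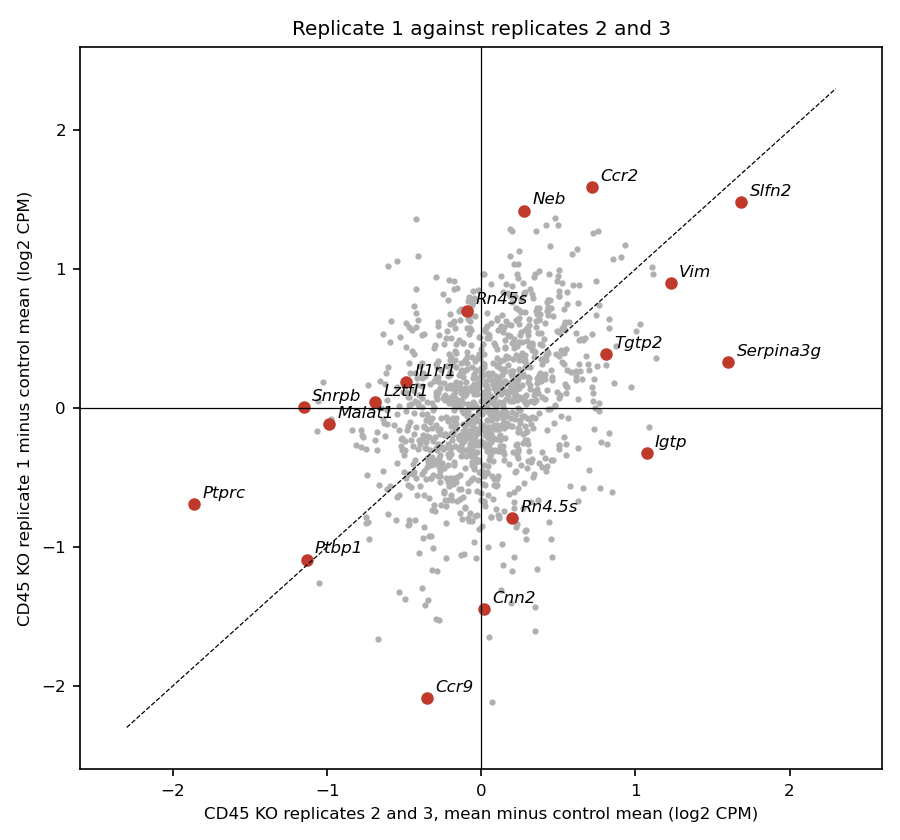
Difference from the control mean in the library labelled CD45 KO replicate 1 (vertical axis, log2 CPM) against the mean difference in CD45 KO replicates 2 and 3 (horizontal axis), for tested genes with a mean of at least 10 counts, with equality as the dashed line. Slfn2, Vim and Ptbp1 lie near that line, Malat1, Lztfl1, Snrpb and Serpina3g lie near 0 on the vertical axis, and Ccr9, Cnn2 and Neb differ mainly in replicate 1.

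Whether CD45 loss acts differently in mature ILC2 than in the other populations was tested as a difference of the 2 effects. Between mature and immature marrow ILC2, 0 of 1916 genes passed by edgeR, with 94 (4.91%) at an unadjusted p under 0.05, and 0 passed by DESeq2, with 34 at an unadjusted p under 0.05. The effect on Malat1 was -0.66 in mature and -0.74 in immature ILC2, that on Serpina3g 1.38 and 1.42, that on Lmo4 -0.67 and -0.76 and that on Vim 1.26 and 1.20. Slfn2 was at 2.06 in mature and 0.15 in immature ILC2, and this difference of 1.91 ± 0.64 did not pass (adjusted p = 0.826).

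Between mature and lung ILC2, 6 genes passed (0.313%), a count that leaving out 1 library moved to between 1 and 13. For Lmo4 the effect was -0.67 in mature ILC2 and 0.84 in lung ILC2, a difference of -1.51 ± 0.22 (adjusted p = 3.82e-06). Lung libraries had a mean of 1476 CPM of Lmo4 in control and 2647 CPM in CD45 KO. For Ccr2 the effect was 1.04 in mature and -0.02 in lung ILC2, where both genotypes were at higher levels (1593 and 1559 CPM), a difference of 1.06 ± 0.27 (adjusted p = 0.0461). With replicate 1 of mature CD45 KO left out that difference was 0.72 (adjusted p = 0.236). All lung libraries had Xist counts (52 to 105) and 0 counts of Y-linked genes, while mature libraries had 0 Xist counts and 14 to 27 Y-linked counts, so tissue and sex cannot be told apart in this comparison.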

How the data were processed

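RNA of sorted ILC2 was sequenced in 18 libraries, of which the 6 from mature marrow are described here. Per the labels' protocols, cDNA was made with a barcoded oligo-dT primer and template switching. The authors deposited whole-number counts per gene, unscaled, and the submitters' processing notes name STAR and mm10. The counting tool, annotation, use of strand and barcode collapsing are not stated in those sources. Counts of overlapping genes and near-identical copies are therefore uncertain. The table lists 24781 genes, with 0 entries for the ERCC spike-in that the protocol mentions and 26 names turned into dates.

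From these counts, edgeR 4.0.16 (R 4.3.3) with TMM factors and filterByExpr (minimum count 10) fitted 6 group means over all 18 libraries. The shared spread is why the fit uses all of them. Genes were tested with edgeR's quasi-likelihood test, Benjamini-Hochberg adjusted over 1916 genes with a threshold of 0.05, and differences of CD45 effects were contrasts of the same fit. SEs were derived from the F statistic as |log2 fold change| over its square root. Levels are normalised CPM. Counting intervals are exact at 95% and, like limits from 0 counts (3 counts), cover counting error only. An exact permutation test of 3 against 3 libraries cannot go below p = 0.1 (2-sided) and was not used. Positions come from GENCODE M21, which held 98.4% of tested genes. The steps were tested on simulated data.

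The genes and lists were chosen with earlier results of these data known. Genes were named by this rule: Ptprc, genes passing with all libraries or without CD45 KO replicate 1, the 12 genes in each direction with the smallest p among those without overlap of the groups and with 10 or more counts on average, up to 4 members of each list with the smallest p, ILC2 markers, effector cytokines, up to 8 genes of each difference, and up to 8 genes at each extreme of CD45 KO replicate 1. The text describes a part of them, and 1 interferon list member is not reported here. Ivns1abp, Igtp, Iigp1, Irgm1, Tgtp1, Gvin1, Trim30a, Ifi203, Ifi47, B2m, Son, S100a8 and S100a9 were chosen after their values were seen. Alternatives were other size factors, filters and tools (DESeq2 1.42.0), fewer libraries, the replicate number as a block, and fits without abundant or sex-linked genes.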

Additional observations from a re-analysis of the deposited data

Results flagged for a closer look

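The effect of CD45 loss differed between mature marrow and lung ILC2, by a test of the difference itself, for 6 genes. Values are mature minus lung differences of log2 fold changes ± SE, and tissue and sex cannot be told apart in them. Lmo4, a transcriptional cofactor gene, differed by -1.51 ± 0.22 (adjusted p = 3.82e-06), and passed under all 19 alternatives run. Pisd-ps3, a pseudogene whose reads can be shared with its parent gene, differed by 2.25 ± 0.47 (adjusted p = 0.00815), with effects of 0.83 in mature and -1.42 in lung ILC2. It failed under 2 of the 18 alternatives that gave it an adjusted p. The Wald test of DESeq2 gave it none, so it did not pass there either.

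Rexo2, the mitochondrial exonuclease gene, differed by 2.32 ± 0.57 (adjusted p = 0.0461). It failed under 10 of the 18 alternatives that gave it an adjusted p, and by DESeq2 it had none and did not pass. Ccr2 differed by 1.06 ± 0.27 (adjusted p = 0.0461) and failed under 14 of 19. Actg1, which encodes cytoskeletal actin, differed by -0.86 ± 0.21 (adjusted p = 0.0461), with effects of 0.03 in mature and 0.89 in lung ILC2, and failed under 10 of 19. Nfkb1, the gene of an NF-kB subunit, differed by -1.05 ± 0.26 (adjusted p = 0.0461), with effects of -0.40 in mature and 0.65 in lung ILC2, and failed under 12 of 19.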

How the results depend on the processing

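Of 153 named genes, 16 passed with all libraries or under an alternative, and 0 of the 16 changed sign under any alternative run. Among the others, 33 changed sign under at least 1, Gata3, Il7r, Id2, Klrg1, Cxcr6, Cnn2 and Rn45s included. Of the 28 list medians 18 did so, among them ILC2 identity (-0.33 to 0.05), splicing (-0.11 to 0.04) and ribosomal proteins (-0.07 to 0.11). Interferon-inducible genes (0.47 to 0.72), heat shock chaperones (0.24 to 0.47), antigen presentation (0.13 to 0.27), oxidative phosphorylation (0.07 to 0.32) and ILC progenitor genes (-0.58 to -0.22) kept their sign. The count of 5 genes in mature ILC2 lay between 4 and 7 with DESeq2 size factors, without filtering low counts, with at least 10 counts required in 3 libraries, without Rn45s and Rn4.5s, without genes on X and Y, with the 12 marrow libraries only, and without both replicates numbered 1. Calls ended among the 5 for Malat1 without filtering low counts (adjusted p = 0.0688), for Serpina3g with the 12 marrow libraries (0.0864), and for Slfn2 (0.053) and Ccr2 (0.202) without both replicates numbered 1, so 4, 4 and 3 of the 5 remained. The count was 1 by the Wald test of DESeq2 and 0 with only the 6 mature libraries, where 1246 genes were tested with fewer degrees of freedom and Ptprc was at -1.68 (adjusted p = 0.0664). Leaving out 1 library gave 3 to 12 genes. The 2 fits chosen after seeing the data gave 14 without CD45 KO replicate 1 on the genes tested with all libraries, and 12 without that library and without Rn45s and Rn4.5s. Ptprc lay between -2.16 and -1.42 with 1 library left out. The count for mature minus lung was 10 by DESeq2 and 1 to 13 with 1 library left out, and the count for mature minus immature was 0 under all alternatives run. The cause was not tested. Deviations from the group means of same-numbered control and CD45 KO libraries had correlations of -0.09, -0.04 and -0.04 across genes. Differently numbered libraries had -0.05 to 0.08. All of these are near 0 and counting error is large at this depth, so they cannot decide whether the numbers pair libraries. With the replicate number as a block 6 genes passed, the 5 reported and Lmo4 (adjusted p = 0.0465), and 0 and 9 for the differences. At a median of 12 counts per tested gene, small changes of single genes were not detectable.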

Other observations

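A few groups not described above had values of note among genes that did not pass. Of the 14 tested genes of the glucocorticoid response 9 were negative, with a median of -0.26, while Nr3c1, the gene of the glucocorticoid receptor, was at 224, 264 and 190 CPM in control and 465, 270 and 326 CPM in CD45 KO (0.63 ± 0.25, adjusted p = 0.38). Its 3 CD45 KO libraries were above all controls. Txnip, a target of that receptor, was at 894, 1110 and 1173 CPM against 1144, 783 and 686 CPM, with replicate 1 inside the control range and the other 2 below it (-0.32 ± 0.16, adjusted p = 0.555).

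Among cytoskeletal genes 24 of 36 were positive, with a median of 0.08. Without the library labelled CD45 KO replicate 1 there were 28 positive, with a median of 0.17, and Vim passed. S100a4, a calcium-binding partner of myosin, was at 209, 291 and 250.6 CPM in control and 381, 413 and 326 CPM in CD45 KO (0.57 ± 0.23, adjusted p = 0.403), without overlap. Of the splicing genes, Son was at 447, 527 and 531 CPM against 357, 396 and 334 CPM (-0.47 ± 0.20, adjusted p = 0.403). Snrpd3 was at 179, 194 and 190 CPM against 369, 329 and 238 CPM (0.70 ± 0.28, adjusted p = 0.38). Of the 50 tested members of this list, 4 were higher and 8 lower in CD45 KO without overlap of the groups. Over all tested genes the shares were 6.58% and 6.21%.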
